A study of Mus musculus with 2 samples.

Results

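The cells described here are Coch-positive mesenchymal cells of the mouse cochlea that carry Hal, Tnc, Hpgds, Npy and Cxcl13. They were selected by measured counts, so the genes used for the selection are described and not tested. Cells were kept when they had 300 or more genes and no more than 20% mitochondrial UMIs (unique molecular identifiers, 1 per captured transcript). A kept cell was a member when it met 3 conditions. It had at least 5 UMIs of Coch, it had a UMI of at least 3 of the 5 genes Hal, Tnc, Hpgds, Npy and Cxcl13, and it had more of these 5 genes than of either of 2 rival panels of 5 genes. The rival panels were Kcnk3, Nov, Sox11, Epha3 and Col23a1, and Lox, Rarres1, Foxc2, Gper1 and Col13a1. The rule found 54 members among 1975 kept cells. They are called Hal/Tnc/Cxcl13 cells below.

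The study surveyed gene expression in the cochlea of wild-type C57BL/6 mice at postnatal day 20 by droplet single-cell RNA sequencing. There was 1 group of 2 libraries, with no treatment, mutant or control. Per the labels, cochleae of 5 to 8 mice were digested with trypsin, and nothing states that the libraries came from separate animals or digestions, so the spread between them may be technical. Library 1 gave 1331 kept cells with a median of 10601 UMIs, and library 2 gave 644 kept cells with a median of 6115.5 UMIs. The libraries shared 2 cell barcodes, and 0 of these were members. Scrublet marked 2 kept cells in library 1 and 4 in library 2 as doublets, and 0 of these were members.

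Coch encodes cochlin, a secreted matrix protein made by the fibrocytes of the spiral ligament and spiral limbus, and it is among the most abundant transcripts of the cochlear mesenchyme. The mesenchyme surrounds the sensory epithelium, anchors the lateral wall, and through gap junctions carries potassium back towards the stria vascularis. The genes that select these cells belong to unrelated pathways. Hal encodes histidine ammonia-lyase, which turns histidine into urocanate. Tnc encodes tenascin-C, a matrix glycoprotein that modulates cell adhesion. Hpgds encodes haematopoietic prostaglandin D synthase, Npy the secreted neuropeptide Y, and Cxcl13 a chemokine that attracts B cells through the receptor Cxcr5. Nrp2, which the rule did not use, was a leading gene of the cluster that the rule came from, so it is described and not tested. It encodes neuropilin-2, a co-receptor for semaphorins and for vascular endothelial growth factors.

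All 5 panel genes had a promoter window in the RefSeq table of build GRCm38.p6, covering 250 bases before and 50 bases after the annotated start. The windows of Hal, Tnc and Cxcl13 are shown because each holds the letters TATAAA, searched on both strands and printed in capitals. The windows of Hpgds and Npy do not hold these letters. Hal (chr10:93488518-93488817, plus strand) holds them on the opposite strand, read in the printed direction as TTTATA, with the first base 28 bases before the start. Tnc (chr4:64046966-64047265, minus strand) holds them 126 bases before the start, and Cxcl13 (chr5:95956689-95956988, plus strand) 46 bases before it. Of all 32851 promoter windows in the table, 13.6% hold these letters on either strand. Tnc has 2 windows in the table, and the first listed is shown. A match is a description of the letters and not a binding site.
Hal: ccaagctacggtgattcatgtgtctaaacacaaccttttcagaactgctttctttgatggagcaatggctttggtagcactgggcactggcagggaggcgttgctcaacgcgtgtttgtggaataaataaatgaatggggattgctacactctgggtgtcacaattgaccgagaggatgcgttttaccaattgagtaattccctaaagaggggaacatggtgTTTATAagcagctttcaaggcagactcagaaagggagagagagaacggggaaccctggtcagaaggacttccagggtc
Tnc: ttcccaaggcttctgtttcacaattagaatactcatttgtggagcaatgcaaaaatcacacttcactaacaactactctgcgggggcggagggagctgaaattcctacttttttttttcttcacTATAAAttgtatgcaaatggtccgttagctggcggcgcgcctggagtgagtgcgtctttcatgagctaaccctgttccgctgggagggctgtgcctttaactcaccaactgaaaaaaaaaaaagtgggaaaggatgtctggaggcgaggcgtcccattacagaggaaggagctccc
Cxcl13: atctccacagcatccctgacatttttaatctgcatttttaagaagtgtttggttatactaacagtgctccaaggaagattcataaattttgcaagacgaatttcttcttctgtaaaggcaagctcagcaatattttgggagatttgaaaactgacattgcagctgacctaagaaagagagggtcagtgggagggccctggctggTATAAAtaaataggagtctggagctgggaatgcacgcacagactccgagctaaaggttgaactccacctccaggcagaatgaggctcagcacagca

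On the genome build GRCm38, the same sequence as the mm10 build of the deposited counts, the 5 panel genes lie on 4 chromosomes. Hal spans chr10:93488768-93519304 on the plus strand, Tnc chr4:63959785-64047015 on the minus strand, and Cxcl13 chr5:95956951-95961068 on the plus strand. Npy (chr6:49822710-49829507, plus strand) and Hpgds (chr6:65117293-65144908, minus strand) share a chromosome. All 5 are protein-coding genes in the annotation.

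The Hal/Tnc/Cxcl13 cells made up a similar share of both libraries. They were 35 of 1331 kept cells in library 1, or 2.63% (exact binomial 95% interval 1.84% to 3.64%), and 19 of 644 in library 2, or 2.95% (1.79% to 4.57%). These intervals cover counting error only. The members were deep cells, with a median of 18553 UMIs in library 1 (lowest 4802, highest 57871) and 17825 in library 2 (3938 to 37473). Their medians of 4233 and 4306 detected genes lay close together.

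Every panel gene was sparse in single cells and was carried by most members. The following values describe the selection and support no test. Hal was seen in 71.4% of members of library 1 and 63.2% of members of library 2, at 111 and 169 CPM (UMIs of the gene per 1000000 UMIs, summed over the members of a library). Tnc was seen in 82.9% and 89.5% of members, at 190 and 138 CPM.

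Hpgds was seen in 100% of members of library 1 and 89.5% of members of library 2, at 200 and 204 CPM, the 2 libraries lying closest for this gene. Npy was seen in 82.9% and 84.2%, at 141 and 154 CPM. Cxcl13 was seen in 91.4% and 78.9%, at 350 and 273 CPM. Nrp2 was seen in 74.3% and 47.4%, at 186 and 125 CPM. A member held a median of 1 to 5 UMIs of any panel gene, and deep members lacked genes too, such as a member with 22614 UMIs and 0 of Hal.

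**Figure D1:**
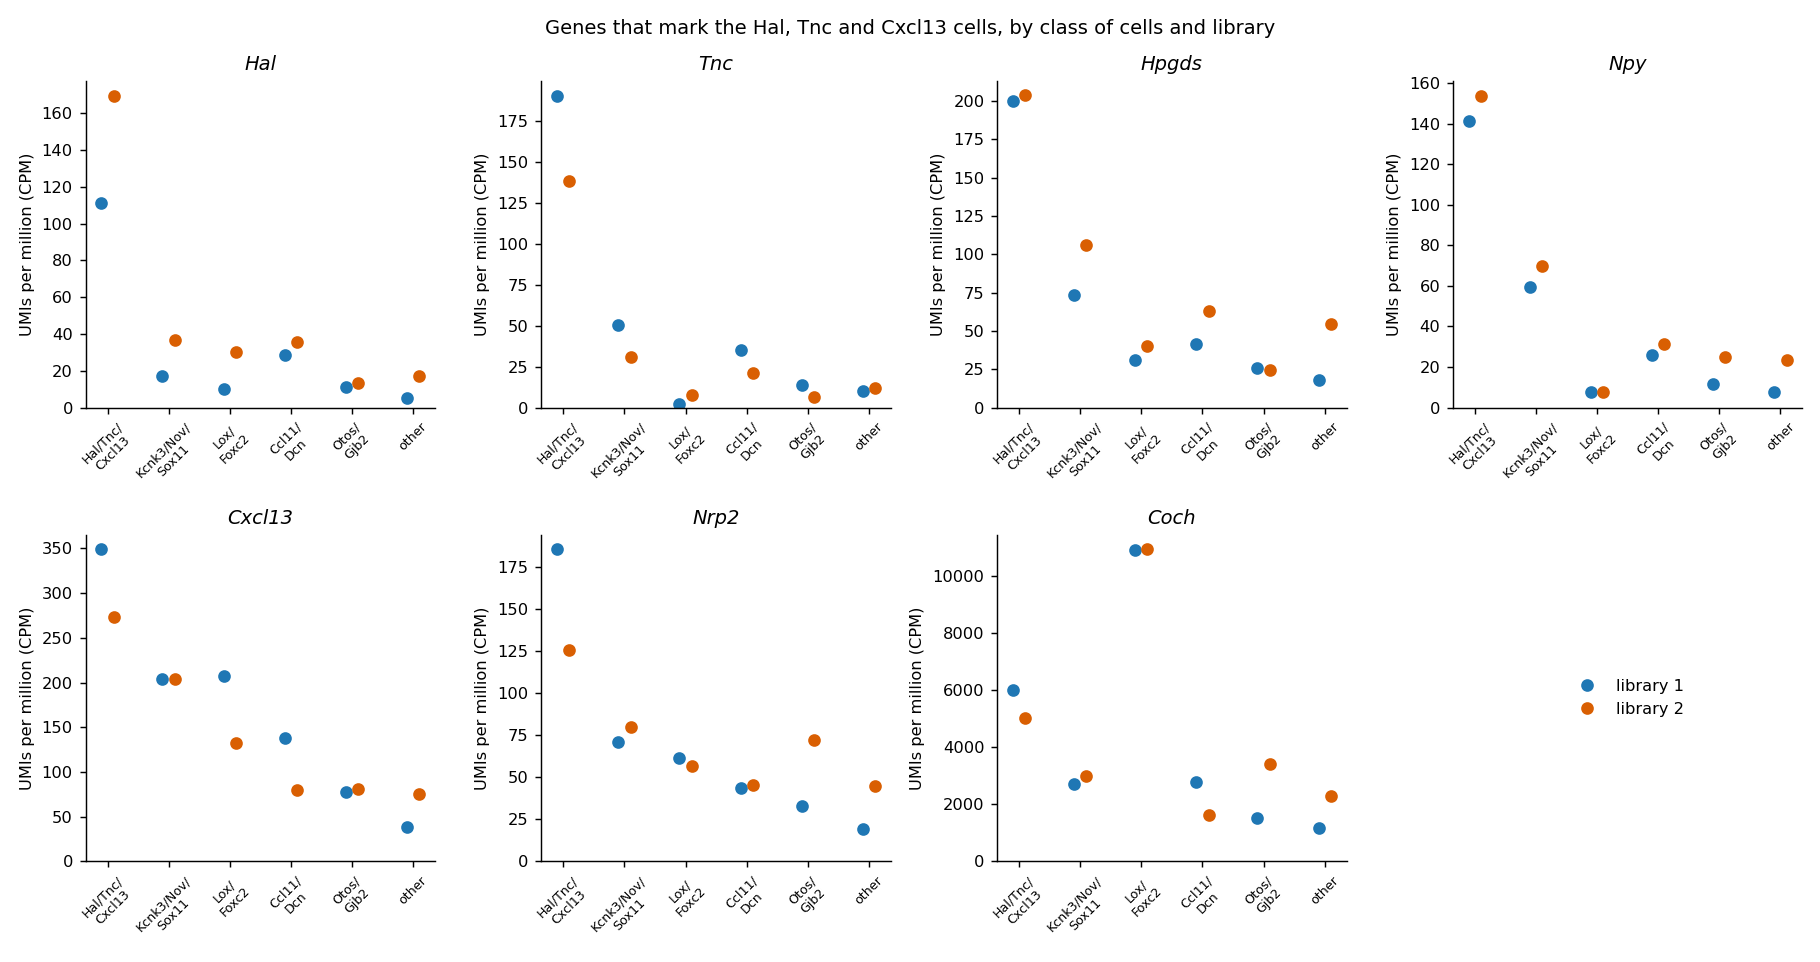
CPM of the 5 panel genes, Nrp2 and Coch (vertical axes, each starting at 0) in 6 classes of cells (horizontal axes), with 1 point per library. Hal/Tnc/Cxcl13 cells, leftmost, hold the highest levels of the 5 panel genes and of Nrp2 in both libraries, while Coch reaches 10906 and 10965 CPM in Lox/Foxc2 cells.

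For comparison, 2 neighbouring Coch-positive classes were selected by the mirrored rule, each with at least 5 UMIs of Coch and at least 3 genes of its own panel and more of them than of the other panels. Kcnk3/Nov cells numbered 151 (83 in library 1 and 68 in library 2), and Lox/Foxc2 cells numbered 144 (73 and 71). The last class, Ccl11/Dcn cells, held 318 cells (172 and 146) with at least 4 of the fibroblast genes Ccl11, Dcn, Pdgfra, Apod and Col3a1. Of the 3 classes, Kcnk3/Nov cells carried most Tnc, Hpgds and Npy. Tnc was 190 and 138 CPM in Hal/Tnc/Cxcl13 cells, against 50.5 and 30.8 CPM in Kcnk3/Nov cells, 1.92 and 7.52 CPM in Lox/Foxc2 cells, and 35.3 and 21.3 CPM in Ccl11/Dcn cells. Npy was 141 and 154 CPM in Hal/Tnc/Cxcl13 cells, against 59.4 and 69.5 CPM in Kcnk3/Nov cells and 7.68 and 7.52 CPM in Lox/Foxc2 cells. As a ratio to Kcnk3/Nov and Lox/Foxc2 cells, Cxcl13 differed least of the 5, at 350 and 273 CPM in Hal/Tnc/Cxcl13 cells, against 204 and 204 CPM in Kcnk3/Nov cells, 207 and 133 CPM in Lox/Foxc2 cells, and 137 and 79.9 CPM in Ccl11/Dcn cells.

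Coch was intermediate in these cells. It stood at 6021 and 5036 CPM in Hal/Tnc/Cxcl13 cells, against 2698 and 2983 CPM in Kcnk3/Nov cells, 10906 and 10965 CPM in Lox/Foxc2 cells, and 2787 and 1615 CPM in Ccl11/Dcn cells. In UMIs per cell, the median was 103 in members of library 1 and 20 in members of library 2. The lowest member of library 1 held 14 Coch UMIs and the highest 299, and those of library 2 held 5 and 439.

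The 5 panel genes were often found together in a cell. All 5 were present in 25 of the 54 members, 17 in library 1 and 8 in library 2. Tnc and Hpgds were both present in 29 of 35 members of library 1 and in 15 of 19 of library 2, and Hal and Tnc in 22 and 11. Hpgds and Cxcl13 were both present in 32 and 13. The pairs share the depth of the cell and the rule asked for at least 3 of these genes, so these counts are a description.

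Deeper members held more of the panel genes. Members with 3, 4 and 5 panel genes had median depths of 7694, 15998 and 24298 UMIs in library 1, and 4598, 13375.5 and 27974.5 UMIs in library 2. The deepest members also carried more of the rival panels, and 38 of the 54 were ahead of a rival panel by only 1 gene. Hal had 1 UMI in all in the 7 members of library 1 that held 3 panel genes and 1 UMI in the 7 such members of library 2, a count that the choice of cells lacking 2 of the 5 genes partly fixes.

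**Figure D2:**
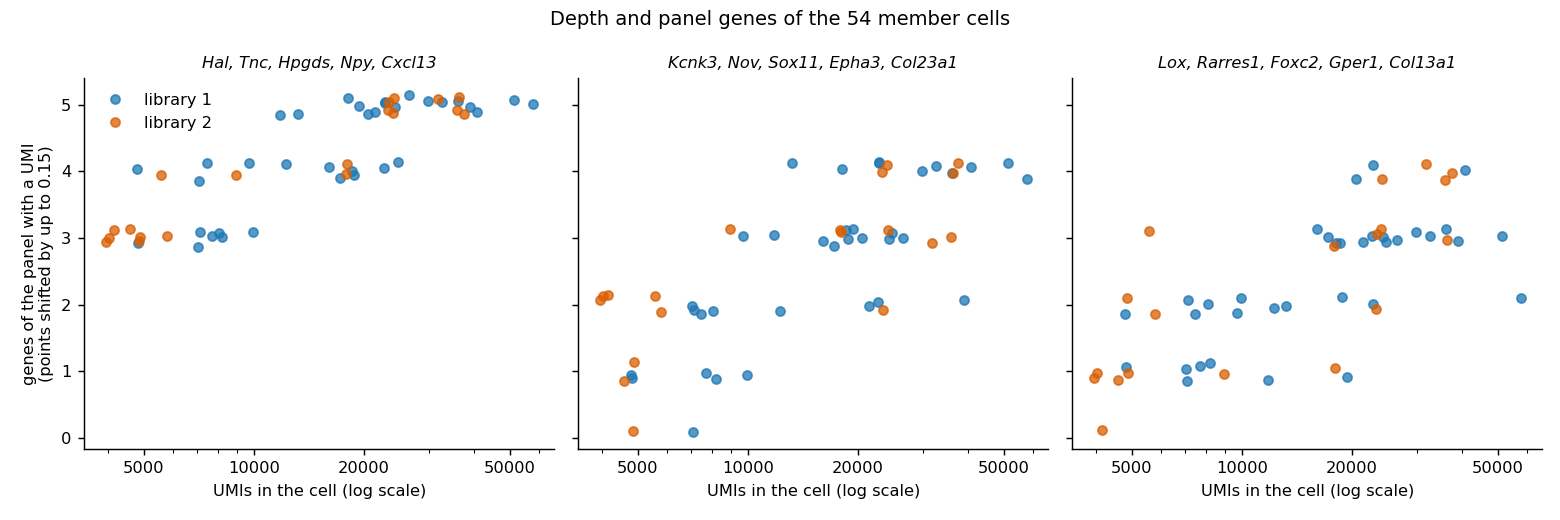
Number of genes with a UMI in the members' own panel (left) and in the 2 rival panels (middle and right) against UMIs per cell on a log axis, with 1 point per member and colours for the libraries. Members with all 5 genes of their own panel have medians of 24298 and 27974.5 UMIs, and the rival panels also fill with depth, up to 4 genes.

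Many cells just outside the rule also carried the panel genes, which choosing cells with at least 3 of these genes partly sets. In library 1, 137 cells had at least 5 Coch UMIs and at least 3 of the 5 genes, and 102 of these were not members, 46 by a tie with a rival panel and 56 by holding fewer. In library 2 these numbers were 67, 48, 19 and 29. At least 3 genes of each of the 3 panels were held by 78 of the 102 and 38 of the 48. The cells lost by a tie had 134 CPM of Hpgds and 112 CPM of Tnc in library 1, and 167 and 80.7 CPM in library 2. Their Hal was at 67.8 and 112 CPM and their Npy at 82.3 and 114 CPM in libraries 1 and 2. These values of Hpgds, Tnc, Hal and Npy were below those of members in both libraries. Cxcl13 was at 331 and 339 CPM, against 350 and 273 CPM in members. Only 3 cells of each library fell short by holding 2 panel genes with the other conditions met. No cell of either library fell short by having 1 to 4 Coch UMIs. When every cell was first thinned to 3000 UMIs, the rule found 15 and 10 cells, of which 10 and 5 were members at full depth.

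Barcodes rich in haemoglobin held few UMIs of the panel genes. In barcodes whose UMIs were at least 50% haemoglobin (372 in library 1, median 10395.5 UMIs, and 36 in library 2, median 12833.5 UMIs), the share with a UMI was 0.806% and 2.78% for Hal, 1.88% and 0% for Tnc, and 4.03% and 2.78% for Cxcl13. The 0 of 36 barcodes for Tnc allow a share of up to 8.33%. Thinned to 3000 UMIs, Tnc was seen in 40% and 57.9% of members, against 0.538% and 0% of haemoglobin-rich barcodes. Coch was different, with a UMI in 88.4% and 75% of haemoglobin-rich barcodes at 243 and 120 CPM, against 6021 and 5036 CPM in members. The members were chosen by these same genes, so their higher values are partly set by the rule. The part of free RNA in the members' counts was not tested.

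Mesenchymal markers that the rule did not use were present in the members. Pou3f4 and Tbx18, transcription factors of the otic mesenchyme, stood at 273 and 207 CPM and at 333 and 238 CPM in members of libraries 1 and 2. Otor, a secreted cochlear protein, stood at 4070 and 2377 CPM. Vim was at 370 and 492 CPM and Col1a2 at 404 and 220 CPM. Markers of lateral wall fibrocytes summed to 1241 and 1236 CPM in members, against 1587 and 1274 CPM in Kcnk3/Nov cells and 1936 and 1643 CPM in Lox/Foxc2 cells. In Ccl11/Dcn cells they summed to 2001 and 1847 CPM. Of this list, the gap junction genes Gjb2 and Gjb6 were at 18.6 and 15.7 CPM and at 11.4 and 3.14 CPM in members.

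Of 5 markers of stria vascularis basal cells, all had counts, summing to 2385 and 2217 CPM in Hal/Tnc/Cxcl13 cells, 1319 and 1592 CPM in Kcnk3/Nov cells, 1071 and 1921 CPM in Lox/Foxc2 cells, and 2439 and 3123 CPM in Ccl11/Dcn cells. The largest of them, the tight junction gene Cldn11, was at 957 and 1167 CPM in Hal/Tnc/Cxcl13 cells, against 1664 and 2315 CPM in Ccl11/Dcn cells. Tjp1 went the other way, at 610 and 452 CPM in members, against 262 and 289 CPM in Ccl11/Dcn cells, as did Nrp2, at 186 and 125 CPM, against 43.8 and 45.1 CPM. Marginal cell markers were nearly absent, with Kcne1, Kcnq1, Esrrb and Hmx2 at 0 in both libraries. Of 6 markers of tympanic border and mesothelial cells, Msln, Upk3b, Wt1 and Slc47a1 were at 0, while Emilin2 was at 5578 and 3914 CPM and Rarres1, a gene of a rival panel, at 868 and 734 CPM. The list summed to 6445 and 4647 CPM in members, against 4644 and 4282 CPM in Kcnk3/Nov cells, 8725 and 6220 CPM in Lox/Foxc2 cells, and 2188 and 1931 CPM in Ccl11/Dcn cells. A count of 0 allows up to 4.28 CPM in library 1 and 9.41 CPM in library 2 (3 counts).

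Endothelial markers summed to 1779 and 2528 CPM, mostly from Emcn (1580 and 2305 CPM), while the defining gene Pecam1 had 1 UMI in each library and Cldn5 had 0. The B-lineage list was mostly made of Ebf1 (1536 and 1399 CPM), with Cd79a at 24.3 and 37.6 CPM and Pax5 at 0. Haemoglobin genes took 1.96% and 0.165% of the members' UMIs, against 0.604% and 0.964% in Kcnk3/Nov cells, 1.24% and 0.184% in Lox/Foxc2 cells, and 1.06% and 0.189% in Ccl11/Dcn cells. The part of this in the differences below was not tested.

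Ranked by the mean log2 ratio of CPM plus 10 between members and all other kept cells, the genes outside the panels that stood nearest to the panel genes over the 2 libraries were Notumos, Gas2l3, Dapl1, 9430020K01Rik, Wnk4, Bhmt, Tjp1, Mybpc1, Pycr1 and Notum. Gas2l3, a cytoskeletal linker, was at 177 and 226 CPM in members, against 39.6 and 61.3 CPM in all other kept cells. Dapl1 was at 467 and 439 CPM, against 119 and 150 CPM, and Bhmt, which remethylates homocysteine with betaine, at 113 and 163 CPM, against 22.8 and 58.0 CPM. This ranking describes how the members were found and carries no test.

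For the comparisons that follow, counts were summed per library and class, and 9981 genes outside the panels were tested with edgeR's quasi-likelihood test with the library as a block, at a Benjamini-Hochberg adjusted p of 0.05. The panels came from a clustering of these same cells in which many of the tested genes took part. The p-values are therefore not independent evidence that the classes are distinct. Each sets a difference against a spread estimated from all 10 sums in the fit, with information shared between genes. It does not measure only how steady that difference was across the 2 libraries. The 3 comparisons share the same member sums. Where classes do not overlap in a gene past the threshold, this is partly set by choosing such genes. The share of genes without overlap among all tested genes was not counted.

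Of the 3 comparisons, the one with Kcnk3/Nov cells had the fewest genes past the threshold. They were 6 of 9981 (0.0601%), 3 higher (0.0301%) and 3 lower (0.0301%), all in the same direction in both libraries, and 563 genes had an unadjusted p under 0.05. The 3 higher genes were Wnk4, a kinase that regulates chloride cotransporters, Bhmt and Notumos. The 3 lower genes were the metal-binding metallothionein Mt1, the matrix protein gene Spon2 and the microfibril gene Mfap2. Many Kcnk3/Nov cells also carried the members' panel. At least 3 of its 5 genes were present in 35 of 83 Kcnk3/Nov cells of library 1 and in 19 of 68 of library 2. For Lox/Foxc2 cells these numbers were 7 of 73 and 5 of 71. The part of this overlap in the low count of calls was not tested.

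Wnk4 was at 137 and 204 CPM in Hal/Tnc/Cxcl13 cells, against 49.3 and 77.5 CPM in Kcnk3/Nov cells, a log2 fold change of 1.5 ± 0.20 (SE; edgeR adjusted p = 0.006). Bhmt was at 113 and 163 CPM, against 34.5 and 70.5 CPM (1.5 ± 0.24, edgeR adjusted p = 0.0203). In each gene the members of both libraries lay above the Kcnk3/Nov cells of both. Notumos was at 467 and 448 CPM, against 180 and 234 CPM (1.23 ± 0.21, edgeR adjusted p = 0.042). Notumos (chr11:120659157-120661815, plus strand) is annotated as antisense and overlaps Notum (chr11:120653788-120661175, minus strand). Whether counting used the strand is not stated, so reads of the overlap cannot be told apart.

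Mfap2 was at 72.8 and 62.7 CPM in Hal/Tnc/Cxcl13 cells, against 218 and 142 CPM in Kcnk3/Nov cells (log2 fold change -1.35 ± 0.21, edgeR adjusted p = 0.02). Spon2 was at 74.2 and 43.9 CPM, against 188 and 153 CPM (-1.39 ± 0.24, edgeR adjusted p = 0.042). Mt1 was at 21.4 and 90.9 CPM, against 98.7 and 252 CPM (-1.72 ± 0.29, edgeR adjusted p = 0.0444), and Mt1 was higher in library 2 in both classes. With DESeq2's size factors in place of TMM, the calls were 6 higher and 3 lower, so that 66.7% of calls were higher, against 50%. Without the library block 0 genes passed (edgeR), with 403 at an unadjusted p under 0.05, while DESeq2 called 6 higher and 5 lower. Other edgeR fits gave more calls, 33 higher and 20 lower with only the 2 classes compared, and 40 and 52 with no filter on low counts. Leaving out a further class that only shared the estimate of the spread gave 45 and 27.

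Against the Lox/Foxc2 cells, the class with most Coch, Hal/Tnc/Cxcl13 cells had 70 genes higher (0.701% of those tested) and 81 lower (0.812%), or 1.51% in all. Higher genes included the signalling ligand Bmp2, the retinoic acid synthesis gene Aldh1a2, the fatty acid binding protein gene Fabp5 and 4 genes of Wnt signalling. Lower genes included 5 collagen genes, among them Col4a3 and Col4a4 of basement membranes, and the adhesion genes Cntn1 and Lsamp. Of the 151 calls, 148 had the same direction in both libraries.

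Gas2l3 had the largest rise among the named genes, at 177 and 226 CPM in Hal/Tnc/Cxcl13 cells, against 17.9 and 25.1 CPM in Lox/Foxc2 cells (log2 fold change 3.33 ± 0.22, edgeR adjusted p = 9.89e-08). Bmp2 was at 88.5 and 62.7 CPM, against 18.6 and 11.3 CPM (2.41 ± 0.29, edgeR adjusted p = 0.000193). Dapl1 was at 467 and 439 CPM, against 92.8 and 103 CPM (2.30 ± 0.22, edgeR adjusted p = 2.45e-05). In these 3 genes both member values lay far above both values of the Lox/Foxc2 cells. Aldh1a2 was at 71.4 and 72.1 CPM, against 16.6 and 17.5 CPM (2.16 ± 0.28, edgeR adjusted p = 0.000265). Mybpc1, which encodes a myosin-binding protein, was at 317 and 389 CPM, against 99.2 and 133 CPM (1.70 ± 0.17, edgeR adjusted p = 2.45e-05). Bmp2 was nearer to the members in the other classes, at 68.9 and 49.7 CPM in Kcnk3/Nov cells and 73.6 and 41.7 CPM in Ccl11/Dcn cells. It passed in neither of those comparisons.

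The other genes among the 10 highest had log2 fold changes between 1.55 and 2.16. Flrt3, a cell-surface adhesion gene, was at 88.5 and 47.0 CPM in members, against 17.3 and 17.5 CPM in Lox/Foxc2 cells. Fabp5 was at 74.2 and 157 CPM, against 25.0 and 32.6 CPM, and the proteoglycan gene Prelp at 111 and 132 CPM, against 41.6 and 45.1 CPM. Bhmt reached 1.91 ± 0.25 here as well.

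**Figure D3:**
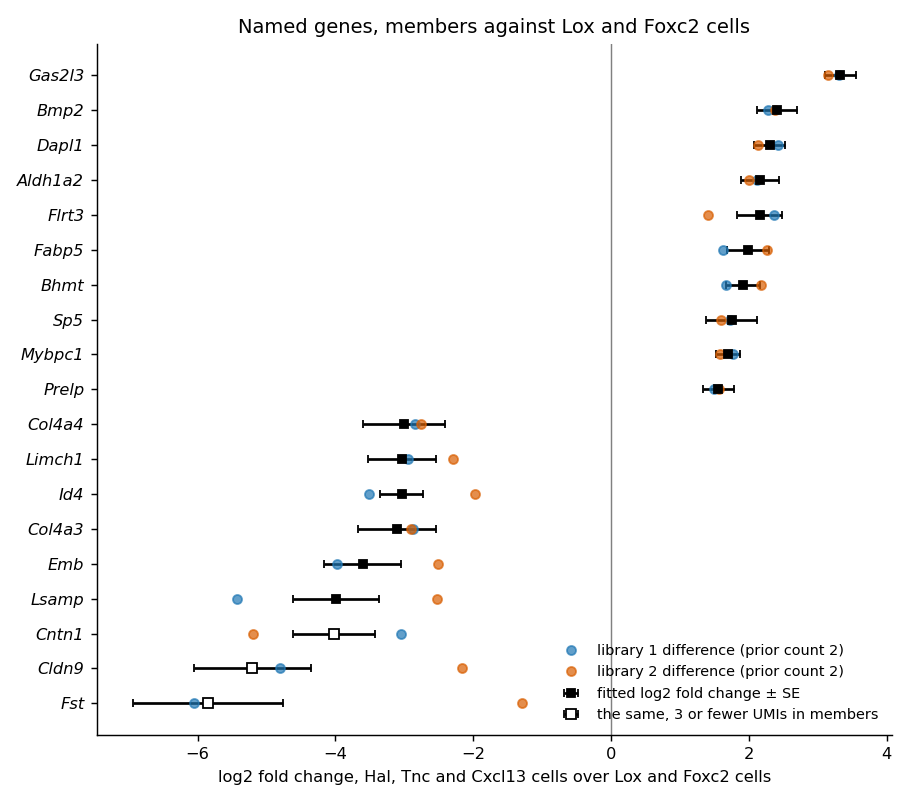
Fitted log2 fold change with its SE (squares, open where the members held 3 or fewer UMIs) and the difference in each library (circles, log2 CPM with a prior count of 2) for named genes, Hal/Tnc/Cxcl13 cells over Lox/Foxc2 cells. Only genes with the circles of both libraries on the same side of 0 were chosen, and Gas2l3 stands highest at 3.33.

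Among the lower genes, Id4, a BMP-induced inhibitor of transcription factors, was at 14.3 and 25.1 CPM in Hal/Tnc/Cxcl13 cells, against 191 and 106 CPM in Lox/Foxc2 cells (-3.04 ± 0.31, edgeR adjusted p = 2.45e-05). Emb, an immunoglobulin-family membrane protein, was at 8.57 and 15.7 CPM, against 167 and 98.9 CPM (-3.60 ± 0.56, edgeR adjusted p = 0.0139). For both genes the 2 member values lay below both values of the Lox/Foxc2 cells. Lsamp had 0 and 4 UMIs in members, against 98 and 65 UMIs. Limch1 was at 7.14 and 6.27 CPM, against 69.1 and 37.6 CPM.

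Where members held 1 to 3 UMIs, the summed counts give the ratio with its counting interval. Cntn1 had 3 UMIs in members, against 118 in Lox/Foxc2 cells, 17-fold lower (5.67 to 83.5). Fst, which encodes the activin antagonist follistatin, had 1, against 161 (69.5-fold lower, 12.3 to 2760). Cldn9, a claudin, had 2, against 202 (43.6-fold lower, 11.9 to 363). Nearly all Fst and Cldn9 UMIs of the Lox/Foxc2 cells were in library 1, 153 and 198, against 8 and 4 in library 2. The summed markers of cochlear epithelium had the same imbalance, at 114 and 40.8 CPM in Hal/Tnc/Cxcl13 cells, against 839 and 46.3 CPM in Lox/Foxc2 cells. The claudin gene Cldn3, at 0 in members and 36 and 3 UMIs in Lox/Foxc2 cells, was at least 5.61-fold lower over the summed libraries. The part of epithelial RNA in these 3 genes was not tested.

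Of 22 collagen genes tested, 0 were higher and 5 lower than in Lox/Foxc2 cells, where 0.701% of all tested genes were higher and 0.812% lower. The median log2 fold change of the list was -1.63, against -0.02 over all tested genes, and DESeq2 called 5 of the 22. Col4a3 was at 7.14 and 6.27 CPM in Hal/Tnc/Cxcl13 cells, against 65.9 and 57.6 CPM in Lox/Foxc2 cells (-3.11 ± 0.56, edgeR adjusted p = 0.00943), and Col4a4 at 7.14 and 9.41 CPM, against 64.6 and 73.9 CPM (-3.00 ± 0.59, edgeR adjusted p = 0.0212). These 2 genes encode chains of one basement membrane collagen network. Col9a1 was at 12.9 and 3.14 CPM, against 76.8 and 23.8 CPM, and Col11a2 at 9.99 and 6.27 CPM, against 67.8 and 36.3 CPM. The fifth was Col8a1. Summed markers of chondrocytes and osteoblasts were at 45.7 and 81.5 CPM in members, against 397 and 63.9 CPM in Lox/Foxc2 cells, and their part in the collagen values was not tested. Col4a3, Col4a4, Col9a1 and Col11a2, which are known deafness genes, were the 4 lower genes among 32 tested mesenchymal deafness genes, with 0 higher, beside the same shares over all tested genes.

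Counts of calls in this comparison moved with the model, to 41 higher and 52 lower with DESeq2 and to 8 higher and 4 lower without the library block. Of the named genes, Gas2l3, Dapl1, Aldh1a2, Flrt3, Mybpc1, Cntn1, Id4 and Igfbp5 (a growth factor binding protein gene, -2.06 ± 0.22, edgeR adjusted p = 0.000529) passed in both of these fits.

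Against the Ccl11/Dcn cells, the class with fibroblast genes, Hal/Tnc/Cxcl13 cells had 97 genes higher (0.972%) and 98 lower (0.982%), or 1.95% in all, and all 195 had the same direction in both libraries. Higher genes included the secreted Wnt inhibitors Wif1 and Notum and the BMP pseudoreceptor gene Bambi. Lower genes included the metallothioneins Mt1 and Mt2, the transcription factor gene Osr2 and the cadherin gene Cdh11. The Ccl11/Dcn cells were shallower, with a median of 5825.5 and 5842.5 UMIs per cell, against 18553 and 17825 in members. The sums compared were 700493 and 318888 UMIs in members and 1644283 and 1175937 in Ccl11/Dcn cells.

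Wif1 was at 106 and 144 CPM in Hal/Tnc/Cxcl13 cells, against 20.7 and 13.6 CPM in Ccl11/Dcn cells (log2 fold change 2.87 ± 0.27, edgeR adjusted p = 9.85e-06). Bambi was at 535 and 608 CPM, against 182 and 171 CPM (1.77 ± 0.19, edgeR adjusted p = 3.77e-05). Notumos was at 467 and 448 CPM, against 112 and 98.6 CPM (2.21 ± 0.22, edgeR adjusted p = 2.24e-05), with the same limit of strand as above. All 3 genes had both member values far above both values of the Ccl11/Dcn cells. Fabp5 was at 74.2 and 157 CPM, against 16.4 and 28.9 CPM (2.38 ± 0.30, edgeR adjusted p = 0.000197). Pycr1, a proline synthesis gene, was at 62.8 and 40.8 CPM, against 14 and 11.1 CPM (2.17 ± 0.39, edgeR adjusted p = 0.00418). Bambi was nearer to the members in the other Coch-positive classes, at 377 and 464 CPM in Kcnk3/Nov cells and 344 and 516 CPM in Lox/Foxc2 cells. It passed in neither of those comparisons.

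Rac3, a small GTPase of the cytoskeleton, was at 180 and 135 CPM in members, against 53.5 and 52.7 CPM in Ccl11/Dcn cells (1.72 ± 0.26, edgeR adjusted p = 0.0019). Dapl1 was at 467 and 439 CPM, against 179 and 96.9 CPM (1.81 ± 0.21, edgeR adjusted p = 0.000107). The gene 1700025G04Rik, without a named function in the files, was at 89.9 and 103 CPM, against 29.2 and 31.5 CPM (1.77 ± 0.23, edgeR adjusted p = 0.000168).

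**Figure D4:**
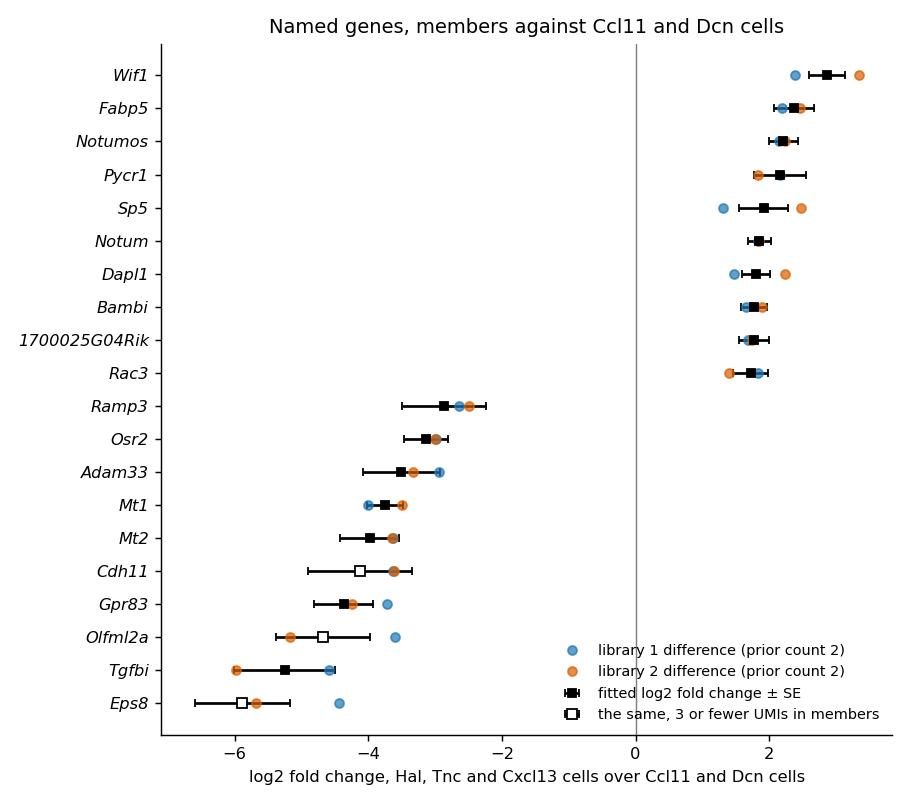
Fitted log2 fold change with its SE (squares, open where the members held 3 or fewer UMIs) and the difference in each library (circles, log2 CPM with a prior count of 2) for the 20 named genes, Hal/Tnc/Cxcl13 cells over Ccl11/Dcn cells. Only genes with both libraries on the same side of 0 were chosen. Wif1 is highest at 2.87, and Mt1 is at -3.75.

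Mt1 was at 21.4 and 90.9 CPM in Hal/Tnc/Cxcl13 cells, against 393 and 1095 CPM in Ccl11/Dcn cells (-3.75 ± 0.28, edgeR adjusted p = 7.36e-06), and Mt2 was at 2.86 and 9.41 CPM, against 55.3 and 140 CPM (-3.98 ± 0.44, edgeR adjusted p = 3.77e-05). Both metallothioneins were higher in library 2 in either class, and both were lower in members within each library. Osr2 was at 18.6 and 18.8 CPM, against 170 and 169 CPM (-3.13 ± 0.33, edgeR adjusted p = 2.24e-05). Tgfbi, a secreted adhesion protein induced by TGF-beta, was at 12.9 and 6.27 CPM, against 366 and 507 CPM (-5.25 ± 0.75, edgeR adjusted p = 0.0364). Gpr83, a G protein-coupled receptor gene, was at 2.86 and 6.27 CPM, against 59.0 and 152 CPM (-4.37 ± 0.44, edgeR adjusted p = 1.88e-05).

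Several genes of the Ccl11/Dcn cells had almost no UMIs in the members. Eps8, an actin regulator, had 1 UMI in members, against 193 in Ccl11/Dcn cells (69.8-fold lower, counting interval 12.4 to 2770). Cdh11 had 3, against 158 (19-fold lower, 6.40 to 93.3), and Olfml2a had 2, against 150 (27.1-fold lower, 7.38 to 226). Col15a1, a basement membrane collagen, had 0 UMIs in members, against 111, at least 13.4-fold lower over the summed libraries (3 counts in place of 0). Figf, the gene of vascular endothelial growth factor D, had 0, against 85, at least 10.2-fold lower, and Matn2 had 0, against 58, at least 6.99-fold lower. Adam33 was at 4.28 and 6.27 CPM, against 45.6 and 79.9 CPM, and Ramp3 at 7.14 and 9.41 CPM, against 56.0 and 62.9 CPM.

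Among 38 tested transcription factors of otic and cranial mesenchyme, 0 were higher and 4 lower than in Ccl11/Dcn cells (Osr1, Osr2, Ebf2 and Six2), and 1 was higher than in Lox/Foxc2 cells (Tbx18). Of all tested genes, 0.982% were lower than in Ccl11/Dcn cells and 0.701% higher than in Lox/Foxc2 cells. DESeq2 called Osr1 and Osr2 only, with no adjusted p for Six2. Osr1 was at 58.5 and 50.2 CPM in members, against 165 and 145 CPM in Ccl11/Dcn cells (-1.44 ± 0.22, edgeR adjusted p = 0.00113). Six2 had 0 UMIs in members, against 44, at least 5.30-fold lower. Tbx18 was at 333 and 238 CPM in members, against 186 and 159 CPM in Lox/Foxc2 cells (0.83 ± 0.20, edgeR adjusted p = 0.0424), a call that was lost with DESeq2. Fn1, the gene of fibronectin, was at 772 and 762 CPM in members, against 310 and 270 CPM in Ccl11/Dcn cells (1.5 ± 0.17, edgeR adjusted p = 4.15e-05). In this comparison DESeq2 called 50 genes higher and 49 lower, and the fit without the library block 27 and 33.

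Wnt ligands bind Frizzled receptors and stabilise beta-catenin, which switches on feedback genes such as Axin2, Nkd1, Notum and Sp5. Of 26 tested genes of the Wnt list, 4 were higher and 0 lower in Hal/Tnc/Cxcl13 cells than in Lox/Foxc2 cells, where 0.701% of all tested genes were higher. Against Ccl11/Dcn cells 5 were higher and 0 lower, where 0.972% of all tested genes were higher. Against Kcnk3/Nov cells, where 0.0601% of all tested genes passed by edgeR, 0 of the 26 passed by edgeR or DESeq2. Of the 26, 4 had an unadjusted p under 0.05 there. DESeq2 called 3 of the 26 in each of the other comparisons. The median over the list was close to that of all genes in each comparison, at 0.05 against -0.02 for Lox/Foxc2 cells and -0.14 against -0.01 for Ccl11/Dcn cells.

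Axin2, a scaffold of the beta-catenin destruction complex, was at 167 and 169 CPM in Hal/Tnc/Cxcl13 cells, 125 and 150 CPM in Kcnk3/Nov cells, 67.8 and 91.4 CPM in Lox/Foxc2 cells, and 101 and 102 CPM in Ccl11/Dcn cells. It was higher in members than in Lox/Foxc2 cells (1.21 ± 0.21, edgeR adjusted p = 0.00472) and than in Ccl11/Dcn cells (0.84 ± 0.20, edgeR adjusted p = 0.0364). Nkd1, which dampens the signal, was at 809 and 721 CPM in members, 677 and 592 CPM in Kcnk3/Nov cells, 422 and 471 CPM in Lox/Foxc2 cells, and 464 and 335 CPM in Ccl11/Dcn cells. Its log2 fold change was 0.86 ± 0.17 over Lox/Foxc2 cells (edgeR adjusted p = 0.0109) and 1.03 ± 0.17 over Ccl11/Dcn cells (edgeR adjusted p = 0.00151).

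Notum, a secreted enzyme that inactivates Wnt ligands, was at 735 and 662 CPM in members, 553 and 595 CPM in Kcnk3/Nov cells, 415 and 455 CPM in Lox/Foxc2 cells, and 221 and 192 CPM in Ccl11/Dcn cells. It was higher than in Lox/Foxc2 cells (0.77 ± 0.16, edgeR adjusted p = 0.0171) and than in Ccl11/Dcn cells (1.85 ± 0.17, edgeR adjusted p = 7.36e-06). Members lay above the other 3 classes for Axin2, Nkd1 and Notum, and the values of Kcnk3/Nov cells came next. The receptor gene Fzd10 was at 88.5 and 94.1 CPM in members, 80.8 and 75.5 CPM in Kcnk3/Nov cells, 49.9 and 50.1 CPM in Lox/Foxc2 cells, and 52.9 and 45.1 CPM in Ccl11/Dcn cells. It was higher than in Lox/Foxc2 cells (0.94 ± 0.22, edgeR adjusted p = 0.0313) and than in Ccl11/Dcn cells (0.97 ± 0.21, edgeR adjusted p = 0.0186).

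Wif1, which binds Wnt ligands outside the cell, did not follow this order. It was at 106 and 144 CPM in members and 99.8 and 145 CPM in Lox/Foxc2 cells, which overlap, against 54.1 and 68.6 CPM in Kcnk3/Nov cells (1.07 ± 0.23, edgeR adjusted p = 0.0978, past no threshold). The target gene Sp5, a transcription factor outside the list, was at 38.5 and 69.0 CPM in members, against 11.5 and 22.6 CPM in Lox/Foxc2 cells (1.75 ± 0.37, edgeR adjusted p = 0.0179) and 15.8 and 11.9 CPM in Ccl11/Dcn cells (1.92 ± 0.36, edgeR adjusted p = 0.00692). The ligand genes Wnt5a (127 and 103 CPM), Wnt5b (12.9 and 25.1 CPM) and Wnt6 (72.8 and 25.1 CPM) passed in no comparison. The receptor genes Fzd1, Fzd2 and Fzd7 and the transcription factor gene Lef1, all with 65.7 CPM or more in members, did not pass either.

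**Figure D5:**
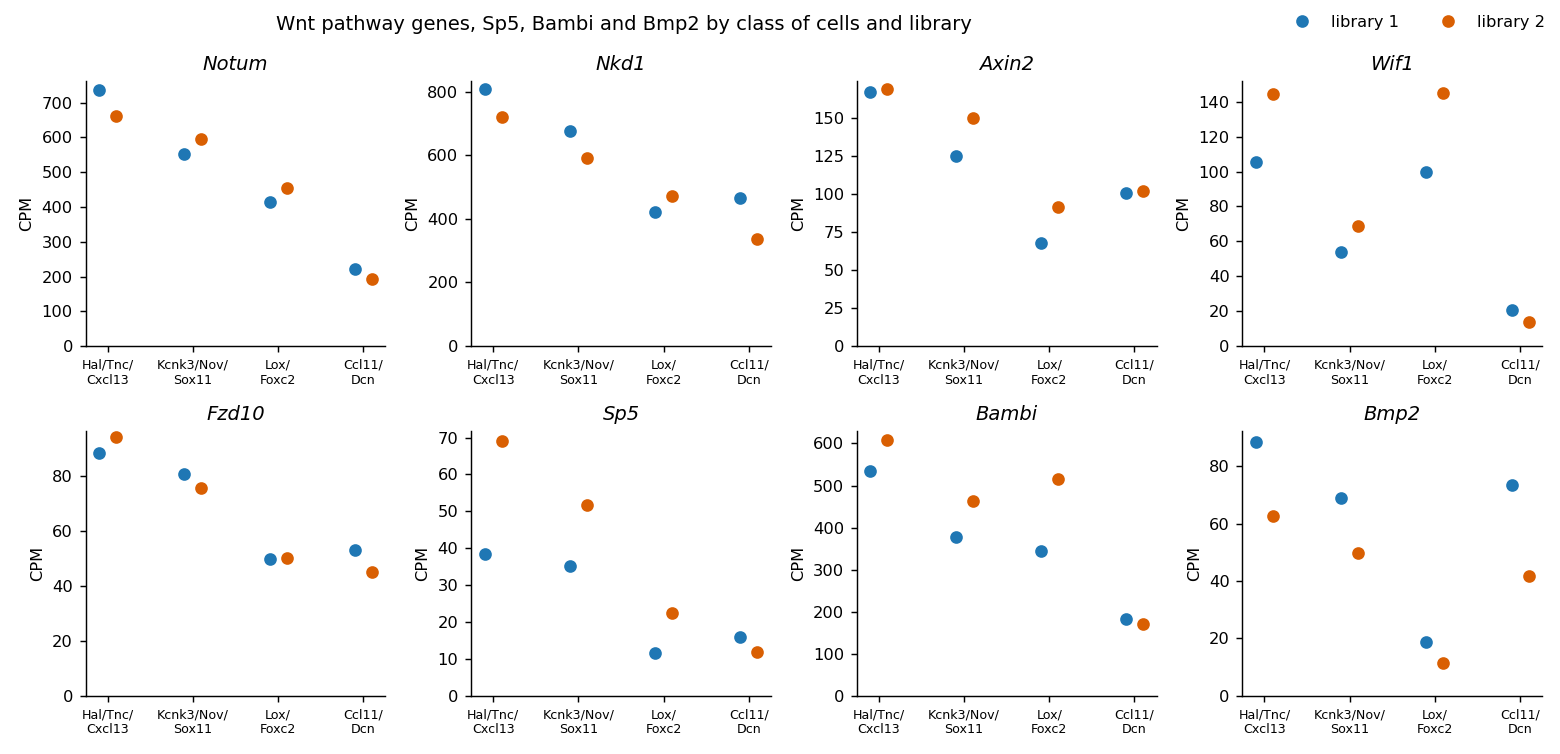
CPM of 5 genes of the Wnt list, Sp5, Bambi and Bmp2 (vertical axes, each starting at 0) in Hal/Tnc/Cxcl13, Kcnk3/Nov, Lox/Foxc2 and Ccl11/Dcn cells, with 1 point per library. Notum, Nkd1 and Axin2 are highest in the Hal/Tnc/Cxcl13 cells in both libraries, at 735 and 662 CPM for Notum, while Wif1 overlaps between Hal/Tnc/Cxcl13 and Lox/Foxc2 cells.

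The BMP and TGF-beta list gave mixed directions. Of 23 tested genes, 1 was higher (Bmp2) and 3 lower (Id2, Id4 and Fst) than in Lox/Foxc2 cells, and 3 were higher (Bambi, Id1 and Id2) and 3 lower (Chrdl1, Tgfbi and Fst) than in Ccl11/Dcn cells. Of all tested genes, 0.701% were higher and 0.812% lower than in Lox/Foxc2 cells, and 0.972% were higher and 0.982% lower than in Ccl11/Dcn cells. DESeq2 called 3 of the 23 in each of these comparisons, and the call of Fst was lost in both. Id2, a BMP-induced inhibitor of transcription factors, was at 807 and 1289 CPM in members, against 2168 and 2933 CPM in Lox/Foxc2 cells (-1.23 ± 0.15, edgeR adjusted p = 0.000193). Id1 was at 708 and 831 CPM in members, against 339 and 347 CPM in Ccl11/Dcn cells (1.25 ± 0.18, edgeR adjusted p = 0.000987). The groups did not overlap in either gene, which the choice of genes past the threshold partly sets. Against Kcnk3/Nov cells 0 of the 23 passed in edgeR, with 6 at an unadjusted p under 0.05 and 1 called by DESeq2. Of all tested genes, 0.0601% passed there in edgeR.

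In the breakdown of histidine, Hal acts first and Uroc1, Amdhd1 and Ftcd follow. Uroc1 and Ftcd had 0 UMIs in members, and Amdhd1 had 14 and 10 UMIs (20.0 and 31.4 CPM), against 8.91 and 9.94 CPM in Kcnk3/Nov cells, and passed in no comparison. The histamine synthesis gene Hdc had 1 and 0 UMIs.

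For prostaglandins, the cyclooxygenase genes that act before Hpgds were low in members, with 1 and 1 UMIs of Ptgs1 and 2 and 0 UMIs of Ptgs2, against 30.7 and 23.8 CPM of Ptgs2 in Lox/Foxc2 cells. Ptgds, the lipocalin-type prostaglandin D synthase, was at 137 and 216 CPM in Hal/Tnc/Cxcl13 cells, against 370 and 255 CPM in Kcnk3/Nov cells, 420 and 1567 CPM in Lox/Foxc2 cells, and 287 and 315 CPM in Ccl11/Dcn cells. Of these 4 classes, the members had the lowest Ptgds in both libraries. Their high Hpgds is set by the rule and is not set against Ptgds here. Ptgds and the other 9 tested genes of the list passed in no comparison by edgeR or DESeq2, with 0, 2 and 1 genes at an unadjusted p under 0.05 against Kcnk3/Nov, Lox/Foxc2 and Ccl11/Dcn cells. Of all 9981 tested genes, 0.0601%, 1.51% and 1.95% passed by edgeR in these comparisons. An unadjusted p under 0.05 was found for 563, 1186 and 1215 of the 9981. Of the receptors of prostaglandin D, Ptgdr had 1 UMI and Ptgdr2 had 0.

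Among neuropeptide Y genes, the receptor genes Npy2r, Npy4r, Npy5r and Npy6r had 0 UMIs in members and Npy1r had 1 in each library. Pam, whose enzyme amidates peptides such as neuropeptide Y, was at 891 and 856 CPM in Hal/Tnc/Cxcl13 cells, against 889 and 529 CPM in Kcnk3/Nov cells, 481 and 442 CPM in Lox/Foxc2 cells, and 615 and 496 CPM in Ccl11/Dcn cells. It was higher than in Lox/Foxc2 cells (1.00 ± 0.16, edgeR adjusted p = 0.00276) and Ccl11/Dcn cells (0.75 ± 0.16, edgeR adjusted p = 0.0167). The prohormone convertase genes Pcsk1 and Pcsk2 had 0 and 1 UMIs over both libraries.

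Of 7 tested chemokine genes other than Cxcl13, 0 passed in any comparison by edgeR or DESeq2, with at most 1 at an unadjusted p under 0.05. Over all tested genes, 0.0601%, 1.51% and 1.95% passed by edgeR against Kcnk3/Nov, Lox/Foxc2 and Ccl11/Dcn cells, so 0 of 7 says little. Cxcl1, which attracts neutrophils, was at 224 and 496 CPM in Hal/Tnc/Cxcl13 cells, against 256 and 417 CPM in Kcnk3/Nov cells, 247 and 311 CPM in Lox/Foxc2 cells, and 345 and 403 CPM in Ccl11/Dcn cells. It was higher in library 2 in each of these classes, and the members were the lowest of the 4 in library 1 and the highest in library 2. Cx3cl1 was at 81.4 and 103 CPM and Cxcl12 at 52.8 and 81.5 CPM. The Cxcl13 receptor gene Cxcr5 had 0 UMIs in members, as did Cxcr3 and Ccr7.

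Of 15 tested semaphorin, plexin and neuropilin genes, 0 passed in any comparison by edgeR or DESeq2, with 1 to 3 at an unadjusted p under 0.05 (Nrp2 was not tested). Over all tested genes, 0.0601%, 1.51% and 1.95% passed by edgeR against Kcnk3/Nov, Lox/Foxc2 and Ccl11/Dcn cells, so 0 of 15 says little. Nrp1 was at 94.2 and 59.6 CPM in members, against 115 and 83.5 CPM in Kcnk3/Nov cells, 128 and 88.9 CPM in Lox/Foxc2 cells, and 136 and 120 CPM in Ccl11/Dcn cells. Nrp2 was at 186 and 125 CPM in members, against 70.7 and 79.5 CPM, 61.4 and 56.4 CPM, and 43.8 and 45.1 CPM in the same 3 classes. Thinned to 3000 UMIs, Nrp2 was seen in 28.6% and 10.5% of members, against 19.3% and 14.7% of Kcnk3/Nov cells. The vascular endothelial growth factor receptor gene Flt1 was at 138 and 169 CPM in members, against 49.9 and 88.4 CPM in Ccl11/Dcn cells (1.33 ± 0.23, edgeR adjusted p = 0.00269), while the endothelial genes Pecam1 and Cldn5 were at or near 0.

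Tight junction and adhesion genes included Tjp1, the gene of the scaffold protein ZO-1, at 610 and 452 CPM in Hal/Tnc/Cxcl13 cells, 291 and 271 CPM in Kcnk3/Nov cells, 221 and 348 CPM in Lox/Foxc2 cells, and 262 and 289 CPM in Ccl11/Dcn cells. It was higher than in Lox/Foxc2 cells (1.02 ± 0.21, edgeR adjusted p = 0.018) and Ccl11/Dcn cells (1.07 ± 0.21, edgeR adjusted p = 0.0104), and both member values lay above all others. Over Kcnk3/Nov cells the difference was 1.00 ± 0.21 and missed the threshold (edgeR adjusted p = 0.0854). Of 21 tested genes of this list, Cadm1 was also higher than in Ccl11/Dcn cells, while Cdh11 was lower there and Cldn3 and Pcdh17 were lower than in Lox/Foxc2 cells. Of all tested genes, 0.972% were higher and 0.982% lower than in Ccl11/Dcn cells. Against Lox/Foxc2 cells these shares were 0.701% and 0.812%.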

How the data were processed

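For 2 libraries of mouse cochlea the authors deposited UMI counts of each gene in each barcode, as whole numbers. The submitters' processing notes name Cell Ranger 2.1.0 and build mm10. How barcodes were selected before deposit and whether counting used the strand, the sources used here do not state. The files held 1610 barcodes with 20212520 UMIs (library 1) and 720 barcodes with 7094752 UMIs (library 2) over 27998 genes. The minimum of 300 genes removed 275 and 60 barcodes, and the limit of 20% mitochondrial UMIs a further 4 and 16. Scrublet (expected rate 2%, scanpy 1.11.5) marked 2 kept cells of library 1 and 4 of library 2, which were kept, and removing them was an alternative. No correction for free RNA was made.

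The members and the gene lists were chosen with earlier results of these data known. Counts were summed per library for Hal/Tnc/Cxcl13, Kcnk3/Nov, Lox/Foxc2, Ccl11/Dcn and Otos/Gjb2 cells. The last are cells with at least 3 of Otos, Car3, Kcnk2, Gjb2 and Gjb6, a mixed class that only shares the estimate of the spread. These 10 sums were fitted together in edgeR 4.0.16 (R 4.3.3). Low genes were removed by filterByExpr (minimum count 10), scaling used TMM factors, and the quasi-likelihood fit was robust (common dispersion 0.0202, residual degrees of freedom 4). The library was a block, which pairs the classes, since the sums of a library come from the same suspension. Benjamini-Hochberg adjustment covered the 9981 genes tested within a comparison. The design called for testing only genes held out of the earlier clustering. That list was not at hand, so all genes passing the filter were tested except 27 (25 panel genes of the 5 classes, Coch and Nrp2).

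CPM values are UMIs per 1000000 UMIs of the summed counts of a class. Log2 fold changes are fitted values, and each SE is the size of the change over the square root of F. Thinning kept 3000 UMIs per cell at random (seed 0), and no member was too shallow. The fit was tested on simulated data. Of genes changed 2-fold in members, 20.4%, 23.5% and 24.5% were recovered against Kcnk3/Nov, Lox/Foxc2 and Ccl11/Dcn cells. For genes changed 4-fold these shares were 73%, 72% and 76%. A gene that passed in no comparison may thus still differ 2-fold. These fits gave 95, 98 and 104 calls against Kcnk3/Nov, Lox/Foxc2 and Ccl11/Dcn cells. The measured counts gave 6, 151 and 195 calls. Recovery at the measured numbers of calls was not tested, so the shares may not hold for the comparison with Kcnk3/Nov cells. Named genes were, in each comparison, the 10 highest and 10 lowest log2 fold changes past the threshold with the same direction in both libraries and at least 50 CPM in the higher class, and from each list up to 4 genes past the threshold and genes at 0. A few items that this rule or the lists would name are not reported here. Statements about single list genes that did not pass were chosen after their values were seen, as was Sp5's place beside the Wnt list. Coordinates come from GENCODE on GRCm38. Symbols on several identifiers were not matched to lists. DESeq2 1.42.0 and other alternatives are given in the closing section.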

Additional observations from a re-analysis of the deposited data

How the results depend on the processing

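The counts of genes called depended strongly on the model. No named gene changed direction, which the choice of named genes partly fixes. Of 100 results for named genes, the call was lost in 65 without the replicate block, in 20 with DESeq2 (which gave no adjusted p for another 11), in 19 with at least 4 panel genes, in 14 with the stricter cell filter (500 or more genes, no more than 10% mitochondrial UMIs), in 12 with at least 10 Coch UMIs and in 4 in the fit without Otos/Gjb2 cells, an alternative chosen after seeing the data. In 0 was it lost with DESeq2's size factors, without the filter on low counts or with marked doublets removed. With only the 2 classes compared, it was lost in 0 of the 95 that had a value.

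Higher and lower counts follow in that order, against 3 and 3 over Kcnk3/Nov cells, 70 and 81 over Lox/Foxc2 cells, and 97 and 98 over Ccl11/Dcn cells. Without the replicate block they were 0 and 0, 8 and 4, and 27 and 33. DESeq2 gave 6 and 5, 41 and 52, and 50 and 49. With no filter on low counts they were 40 and 52, 121 and 313, and 174 and 274. With only the 2 classes compared in the fit they were 33 and 20, 156 and 154, and 384 and 369, and without Otos/Gjb2 cells 45 and 27, 235 and 186, and 303 and 259. Over Kcnk3/Nov cells, DESeq2's size factors gave 6 higher, at least 4 panel genes 9 higher, at least 10 Coch UMIs 5 higher, and the stricter cell filter 6 higher and 1 lower. The cause was not tested. Leaving out a library leaves no residual degrees of freedom, so it gave no test. The differences in each library kept their direction for all 100 named results. The highest and lowest genes were named only where both libraries had the same direction, so this is partly set by the choice.

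The members' share, a mean of 2.79% over the libraries, was 3.14% with at least 2 panel genes, 1.98% with at least 4, 2.40% with at least 10 Coch UMIs, 3.10% with the stricter cell filter and 1.34% after thinning to 3000 UMIs, and 2.63% to 2.95% when a library was left out. Leaving out a library, the thinned share with a UMI ranged from 14.3% to 31.6% for Hal, 40% to 57.9% for Tnc, 51.4% to 52.6% for Hpgds, 22.9% to 42.1% for Npy, 36.8% to 57.1% for Cxcl13 and 10.5% to 28.6% for Nrp2. At 2000 UMIs, Tnc was 28.9% and Hpgds 37.4%, against 48.9% and 52.0% at 3000. With 700493 and 318888 UMIs in the members' sums, genes under a few CPM cannot be compared.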

Other observations

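Further lists differed in a few genes each. Of 26 tested immediate early and heat shock genes, which are induced by stress and by tissue digestion, 4 were higher and 0 lower in Hal/Tnc/Cxcl13 cells than in Ccl11/Dcn cells (Jun, Junb, Jund and Klf2), and 1 was higher than in Lox/Foxc2 cells (Ier2), where 0.972% and 0.701% of all tested genes were higher. DESeq2 called only Klf2 of these 5. Junb was at 7011 and 6990 CPM in members, against 5103 and 4766 CPM in Ccl11/Dcn cells (log2 fold change 0.60 ± 0.14, edgeR adjusted p = 0.0303). Klf2 was at 3449 and 2898 CPM, against 2388 and 1748 CPM (0.72 ± 0.15, edgeR adjusted p = 0.0117). The part of the digestion in these values was not tested. The cell cycle inhibitor gene Cdkn1a was at 235.5 and 188 CPM in members, against 83.9 and 64.6 CPM in Ccl11/Dcn cells (1.61 ± 0.22, edgeR adjusted p = 0.000499), and the cyclin gene Ccnd2 at 267 and 267 CPM, against 836 and 853 CPM in Lox/Foxc2 cells (-1.57 ± 0.28, edgeR adjusted p = 0.0312).

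Receptor and growth factor genes also differed. The fibroblast growth factor receptor gene Fgfr2 was at 120 and 163 CPM in Hal/Tnc/Cxcl13 cells, against 45.6 and 80.8 CPM in Ccl11/Dcn cells (1.31 ± 0.24, edgeR adjusted p = 0.00692). The neurotrophin receptor gene Ntrk2 was at 20.0 and 34.5 CPM, against 150 and 182 CPM (-2.61 ± 0.27, edgeR adjusted p = 2.24e-05). Igfbp5, which binds insulin-like growth factors, was at 364 and 480 CPM in members, against 1562 and 2107 CPM in Lox/Foxc2 cells (-2.06 ± 0.22, edgeR adjusted p = 0.000529), a call lost without the Otos/Gjb2 cells in the fit. Aldh1a2, higher in members than in Lox/Foxc2 cells, was lower in members than in Ccl11/Dcn cells, at 71.4 and 72.1 CPM, against 152 and 184 CPM (-1.12 ± 0.21, edgeR adjusted p = 0.00609). The syndecan gene Sdc2 and the integrin gene Itga8 were lower in members than in Ccl11/Dcn cells, at 45.7 and 28.2 CPM, against 159 and 152 CPM, and at 62.8 and 56.5 CPM, against 172 and 170 CPM. The antigen presentation gene H2-D1 was at 89.9 and 100 CPM, against 167 and 247 CPM (-0.99 ± 0.23, edgeR adjusted p = 0.0361).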
